A study of Mus musculus with 8 samples.

Results

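Fatty acids are built in the cytosol from citrate, and this account follows 10 mouse genes of that path in regulatory T cells (Tregs): Acly, Acaca and Fasn, the desaturase genes Scd1, Scd2 and Fads2, and the elongase genes Elovl1, Elovl5, Elovl6 and Elovl7. They were taken from the deposited table by gene symbol, as enzymes of fatty acid synthesis, desaturation and elongation around Elovl6, and all 10 are among its 21524 genes. RNA came from Tregs flow-sorted from spleen, with 4 libraries labelled IL-2 (41 to 44) and 4 labelled control (45 to 48). In the series as a whole, a mutein of IL-2 was paired with CTLA-4 Ig in mice that received mismatched hearts or kidneys, and knockout mice that lack ST2 in Tregs were used. For these 8 samples the labels give the treatment only. Whether IL-2 here means that mutein, strain, genotype, age, graft, dose, time of sampling, what the controls received, whether any group had CTLA-4 Ig and whether each library is a separate animal are not stated there. The p-values below therefore set a group difference against the spread between these libraries, which may be technical.

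ATP citrate lyase, the product of Acly, splits citrate into acetyl-CoA and oxaloacetate. Acetyl-CoA carboxylase (Acaca) turns acetyl-CoA into malonyl-CoA, and fatty acid synthase (Fasn) joins these units into palmitate, a saturated chain. Elongases lengthen chains in the endoplasmic reticulum, each with its preferred substrates, and desaturases add double bonds. The SREBP transcription factors are known activators of most of these genes, and activated T cells are known to draw on the path for membranes as they grow.

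The set was chosen by pathway around Elovl6, which was itself selected on its IL-2 against control difference in these libraries, so the values of the 10 genes are given as a description with their spread, and no test of them is reported. Standard errors given with their fitted differences do not allow for that selection and are not to be read as a test. Of the 10, Fasn, Elovl5 and Elovl6 were higher in every IL-2 library than in any control library, by 2.02-fold, 1.57-fold and 4.54-fold; in 16.7% of the genes tested did the IL-2 libraries lie wholly above the controls. Acly, Acaca, Scd2 and Elovl1 had groups that overlapped, and Scd1, Elovl7 and Fads2 had 3 or fewer reads before normalisation in every library. Values are normalised read counts recovered from the deposited variance-stabilised values, and folds are ratios of group means. In bulk RNA, fewer cells of a type and less RNA per cell cannot be told apart.

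The stretch of DNA upstream of the 3 genes that were higher together is shown here, so that their promoters can be compared. Of the 10 genes, 8 had a RefSeq promoter (GRCm38.p6), with 9 windows in all. Each window printed runs from 250 to 51 bases before the start, 5′ to 3′ on the gene's strand, for Fasn at chr11:120824598-120824797 (minus strand), for Elovl5 at chr9:77917115-77917314 (plus strand) and for Elovl6 at chr3:129532136-129532335 (plus strand). Capitals mark CCAAT, the box bound by NF-Y, and CACGTG, an E-box, on either strand.
Fasn: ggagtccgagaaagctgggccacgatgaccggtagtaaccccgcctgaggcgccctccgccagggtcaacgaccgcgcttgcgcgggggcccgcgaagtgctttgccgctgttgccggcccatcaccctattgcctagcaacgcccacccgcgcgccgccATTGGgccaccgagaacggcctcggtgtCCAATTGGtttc
Elovl5: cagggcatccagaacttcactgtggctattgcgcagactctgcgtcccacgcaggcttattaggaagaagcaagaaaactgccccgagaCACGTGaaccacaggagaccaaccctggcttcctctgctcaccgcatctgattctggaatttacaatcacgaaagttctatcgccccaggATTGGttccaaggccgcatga
Elovl6: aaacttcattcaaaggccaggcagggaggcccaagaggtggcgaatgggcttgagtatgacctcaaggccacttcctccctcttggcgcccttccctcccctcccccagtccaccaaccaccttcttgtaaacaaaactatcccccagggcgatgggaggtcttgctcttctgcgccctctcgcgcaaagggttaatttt

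The Fasn window held CCAAT at 90, 62 and 59 bases before the start, the last pair overlapping on opposite strands. That of Elovl5 held CCAAT at 71 and CACGTG at 161 bases before the start, and that of Elovl6 held neither. Windows of the same length from all promoters of the table, 32851 in number, held CCAAT in 28.4% and CACGTG in 4.34%. A sterol regulatory element spelled TCACNCCAC (0.81% of all windows) and a STAT site spelled TTCNNNGAA (5.76%) were searched on both strands and matched in 0 of the 9 windows. These letters are a description of a short window and show no binding.

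Acly, the entry to the path, had 1247 to 1637 normalised reads in the IL-2 libraries and 1095 to 1322 in the controls. IL-2 library 41, at 1637, stood above the other 7 libraries, while libraries 42, 43 and 44, at 1247, 1333 and 1262, lay among or close to the controls. Group means were 1370 ± 182 with IL-2 and 1221 ± 102 in controls (SD, n = 4 each), a ratio of 1.12.

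Acaca, the gene of the carboxylase that commits acetyl-CoA to fatty acids, had 559, 562, 610 and 516 reads in IL-2 libraries 41 to 44. The controls 45 to 48 had 539, 418, 490 and 416. The groups touched through control 45, which lay above IL-2 library 44, and the ratio of means was 1.21 (562 ± 38.6 against 466 ± 59.8).

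Fasn, the gene of the synthase itself, had 1581, 1908, 1738 and 1676 reads in IL-2 libraries 41 to 44. In controls 45 to 48 it had 735, 785, 931 and 961. The lowest IL-2 library was 1.65 times the highest control, with means of 1726 ± 137 and 853 ± 110. On the deposited log2 scale, which is compressed at low values, the difference fitted by limma was 0.66 ± 0.06 (SE). On log2 of normalised reads it was 1.02 ± 0.10.

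Elovl6, which lengthens palmitate and other chains of similar length to the stearate length, had the largest difference of the 10 genes. Its normalised reads were 1142, 1332, 1477 and 1295 in IL-2 libraries 41 to 44 and 296, 238, 286 and 336 in controls 45 to 48. The lowest IL-2 library held 3.40 times the reads of the highest control. Means were 1311 ± 138 and 289 ± 40.4, and the difference was 1.14 ± 0.06 on the deposited scale and 2.17 ± 0.12 on log2 of normalised reads. By the fold of group means it was number 24 from the top of 5261 genes, while Fasn was number 146 and Elovl5 number 342.

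Elovl5, which elongates polyunsaturated chains, had 1269, 1387, 1323 and 1256 reads in IL-2 libraries 41 to 44. Controls 45 to 48 had 687, 818, 896 and 943. The groups did not overlap, although the lowest IL-2 library was only 1.33 times the highest control, and the means were 1309 ± 59.9 and 836 ± 112. The fitted difference was 0.41 ± 0.06 on the deposited scale.

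Elovl1, an elongase of saturated and monounsaturated very long chains, had 167, 152, 191 and 243 reads in the IL-2 libraries and 157, 139, 188 and 169 in the controls. The groups overlapped, and library 44 was the highest of the 8. Library 44 also had the most reads of Mki67, a gene of dividing cells, with 13044 against 5332 to 6142 in the other IL-2 libraries. The exons of Elovl1 share 53 bases with the mitotic gene Cdc20 on the other strand (GENCODE M21), and whether counting used the strand is not stated in the labels. Cdc20 itself had 221 reads in library 44, 35.8 to 76.3 in the other IL-2 libraries and 21.1 to 57.1 in controls. The shared bases are a small part of the 1.941 kb of Elovl1 exon, and how many of its reads they gave was not tested.

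Scd2, a desaturase that makes monounsaturated chains, was the only well-measured gene of the set with a lower mean in the IL-2 group. Its reads were 532, 437, 428 and 304 in IL-2 libraries 41 to 44 and 661, 501, 483 and 568 in controls 45 to 48. The groups overlapped because library 41 lay above controls 46 and 47, and the ratio of control to IL-2 means was 1.30 (553 ± 80.7 against 425 ± 93.2).

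The remaining genes were at the limit of detection. Scd1, the main stearoyl-CoA desaturase of liver and fat, was above 0 in 1 IL-2 library and 2 controls, with at most 3 reads before normalisation. Elovl7, another elongase of long saturated chains, was above 0 in 3 IL-2 libraries and 1 control, again with at most 3 reads before normalisation. Fads2, the delta-6 desaturase of polyunsaturated chains, had 1 read in control 47 and 0 elsewhere. A count of 0 allows up to 3 reads in a library, by counting error only, so no fold is given for these 3 genes. Of the desaturases in the set, Scd2 alone was measured above this limit. Salmon assigns reads shared by near-identical sequences by estimation. How alike the Scd1 and Scd2 transcripts are was not examined, so whether reads of one were counted as the other is not known.

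**Figure D1:**
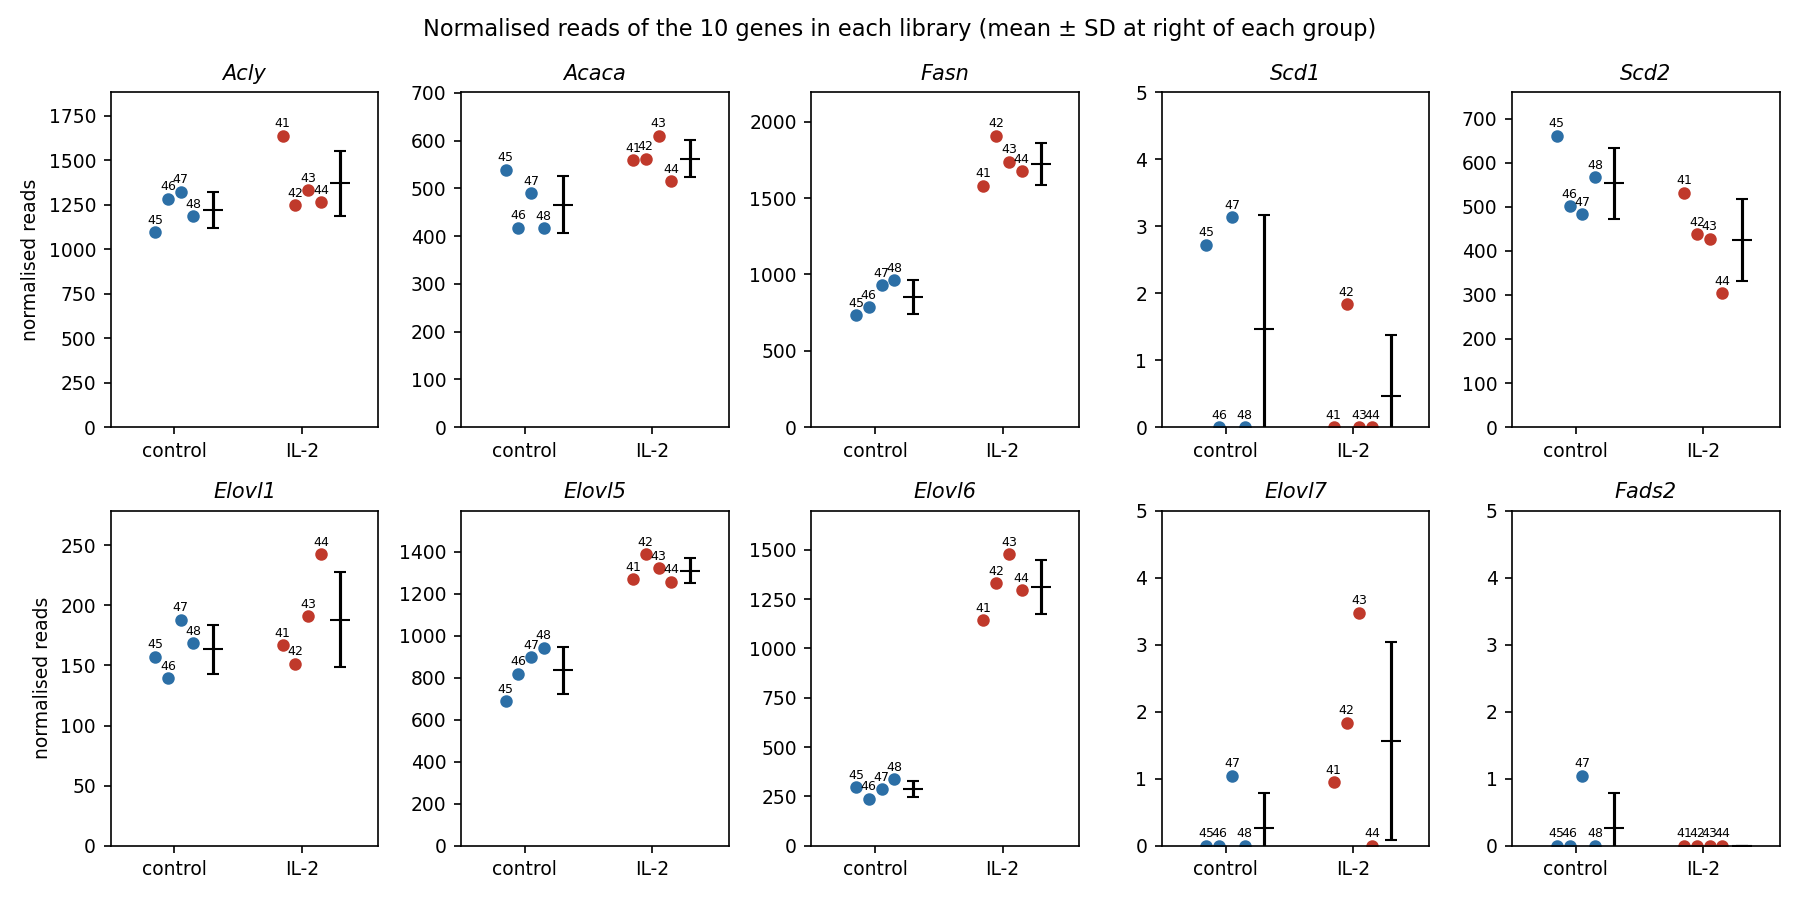
Normalised read counts (vertical axes, each from 0) of the 10 genes in control and IL-2 libraries. Points are libraries with their numbers, and the bar at the right of each group is the mean ± SD (n = 4), drawn only above 0. Fasn, Elovl5 and Elovl6 have groups that do not overlap, while Scd1, Elovl7 and Fads2 stay at 3.47 normalised reads or fewer.

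All genes with enough reads were fitted with limma on the deposited values (the first fit), with p-values adjusted by the Benjamini-Hochberg method over the 5261 genes tested. A gene was tested when at least 4 libraries lay 1 unit above the lowest value, which corresponds to 206 normalised reads. Of the 10 genes, 6 passed this filter, each of them in all 8 libraries. Elovl1 lay just outside it, with a fourth-highest library 0.91 above the lowest value of the table where 1 was needed, and Scd2 was the lowest of those inside at 1.52. This fit is used below for genes outside the set, where a gene is said to have risen or fallen at an adjusted p under 0.05. Of all tested genes, 16.8% rose and 14.6% fell.

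Set per kilobase of exon, the order of the genes also differed between the groups. Exon lengths were those of GENCODE M21, so the order is approximate. In controls Elovl5 (300 ± 40.2 normalised reads per kb) and Acly (265 ± 22.2) came first with ranges that overlapped. Scd2 (101 ± 14.8), Fasn (84.9 ± 10.9) and Elovl1 (84.2 ± 10.5) followed, again with neighbours that overlapped, and Acaca (49.0 ± 6.28) and Elovl6 (47.1 ± 6.59) were last and overlapped. In IL-2 libraries Elovl5 (470 ± 21.5) stood above Acly (297 ± 39.4) without overlap, and Elovl6 (214 ± 22.4) came next, overlapping Fasn (172 ± 13.7). Elovl1 (96.9 ± 20.5), Scd2 (78.0 ± 17.1) and Acaca (59.1 ± 4.06) came after them, each overlapping the next. Elovl6 was thus last in controls and number 3 with IL-2 among the 7 genes with more than 3 reads.

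Among the 4 elongases, Elovl6 held 25.6%, 27.3%, 29.5% and 26.8% of the elongase reads per kb in IL-2 libraries 41 to 44. In the controls it held 9.58% to 12.8%, with the highest share in library 45. The share of Elovl5 was 60.2% ± 2.85 with IL-2 and 69.5% ± 2.95 in controls, and that of Elovl1 12.4% ± 2.52 and 19.5% ± 1.91, so the transcript that was highest in every library was Elovl5. The largest share of Elovl7 in a library was 0.106%.

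**Figure D2:**
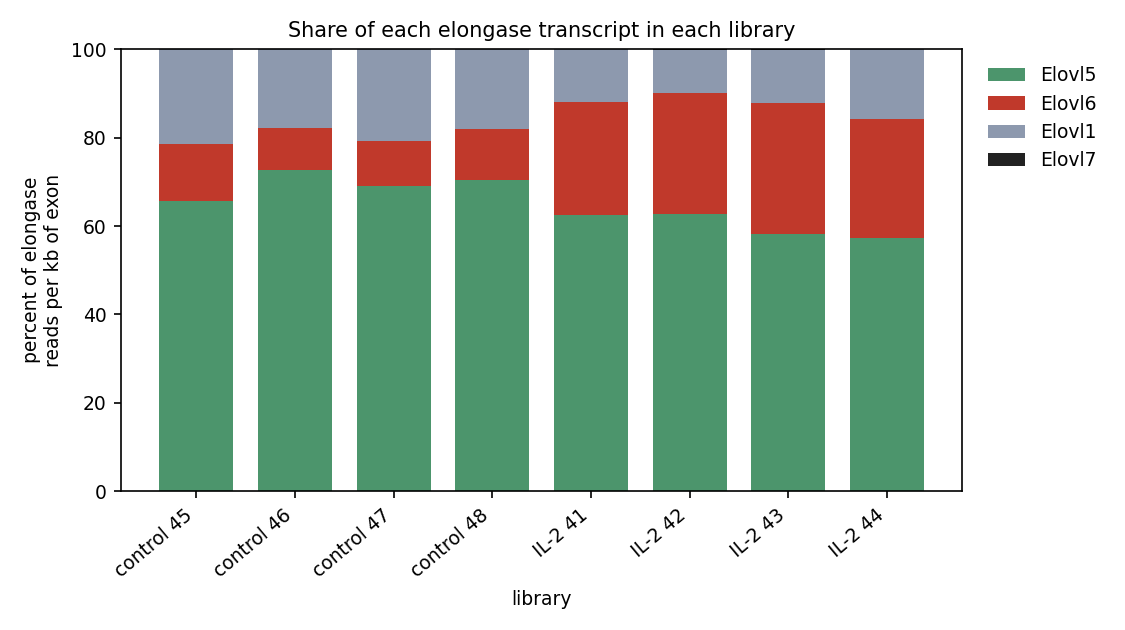
Share of the reads per kb of exon of the 4 elongase genes (vertical axis, percent) held by each gene in each library (horizontal axis). The share of Elovl6 runs from 25.6% to 29.5% in IL-2 libraries and from 9.58% to 12.8% in controls, and Elovl7 is too small to be seen.

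Ratios within a library do not depend on how libraries were scaled. Fasn reads over Acaca reads were 2.83, 3.39, 2.85 and 3.25 in IL-2 libraries 41 to 44 and 1.36, 1.88, 1.90 and 2.31 in controls 45 to 48, so the synthase was higher against the carboxylase in every IL-2 library. Elovl6 over Fasn was 0.761 ± 0.0671 with IL-2 and 0.341 ± 0.0463 in controls. Elovl6 over Scd2 was 3.23 ± 0.876 and 0.526 ± 0.0765, with the highest value, 4.25, in library 44. Fasn over Elovl5 was closer between the groups, at 1.32 ± 0.0538 and 1.02 ± 0.0469, and these values did not overlap either.

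Within the controls, Fasn and Elovl5 were lower in libraries 45 and 46 than in 47 and 48. Libraries 45 and 46 were also the deeper, with 6050937 and 6147508 estimated reads against 5445066 and 4970819, and whether depth plays a part was not tested. Elovl6 did not follow that order in controls, with its lowest value in library 46. Within the IL-2 group library 42 had the most reads of Fasn and Elovl5, and library 43 the most of Elovl6 and Acaca. No library of either group stood apart for any of the 7 genes by Dixon's criterion.

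The elongases catalyse only the first of the reactions that add a carbon pair to a chain. The same cycle needs the ketoacyl reductase Hsd17b12, a dehydratase of the Hacd family and the enoyl reductase Tecr. These genes were not in the set and could be tested. Hacd3 had 641, 639, 602 and 566 reads in IL-2 libraries 41 to 44 and 1129, 1020, 1132 and 1007 in controls 45 to 48. All IL-2 values lay well below all control values, and Hacd3 fell (1.75-fold lower, log2 difference -0.46 ± 0.05 SE, limma adjusted p = 3.38e-05). The rest of the family is named after its values were seen. Hacd2, too low for the first fit, had 56.6 ± 14.5 reads with IL-2 and 40.9 ± 3.52 in controls. On log2 of normalised reads with 10777 genes tested it did not pass (limma adjusted p = 0.368). Hacd1 had 0 reads throughout and Hacd4 at most 1 before normalisation.

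Tecr (338 ± 16.7 against 247 ± 53.8) and Hsd17b12 (331 ± 51.2 against 205 ± 88.1) rose on the deposited scale (limma adjusted p = 0.0451 and 0.0473). Both passed the filter in all IL-2 libraries but not in all controls. On log2 of normalised reads with 10777 genes tested, neither passed (limma adjusted p = 0.0632 and 0.0831). Control 45 had 87.1 reads of Hsd17b12 and the other controls 201 to 297, and without it the log2 difference went from 0.28 to 0.17 (limma adjusted p = 0.0974). The calls did not hang on that library alone. With single libraries left out, Hsd17b12 passed only without control 47 (limma adjusted p = 0.0186). Tecr passed only without control 46 or 47 (limma adjusted p = 0.0294 and 0.0441).

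**Figure D3:**
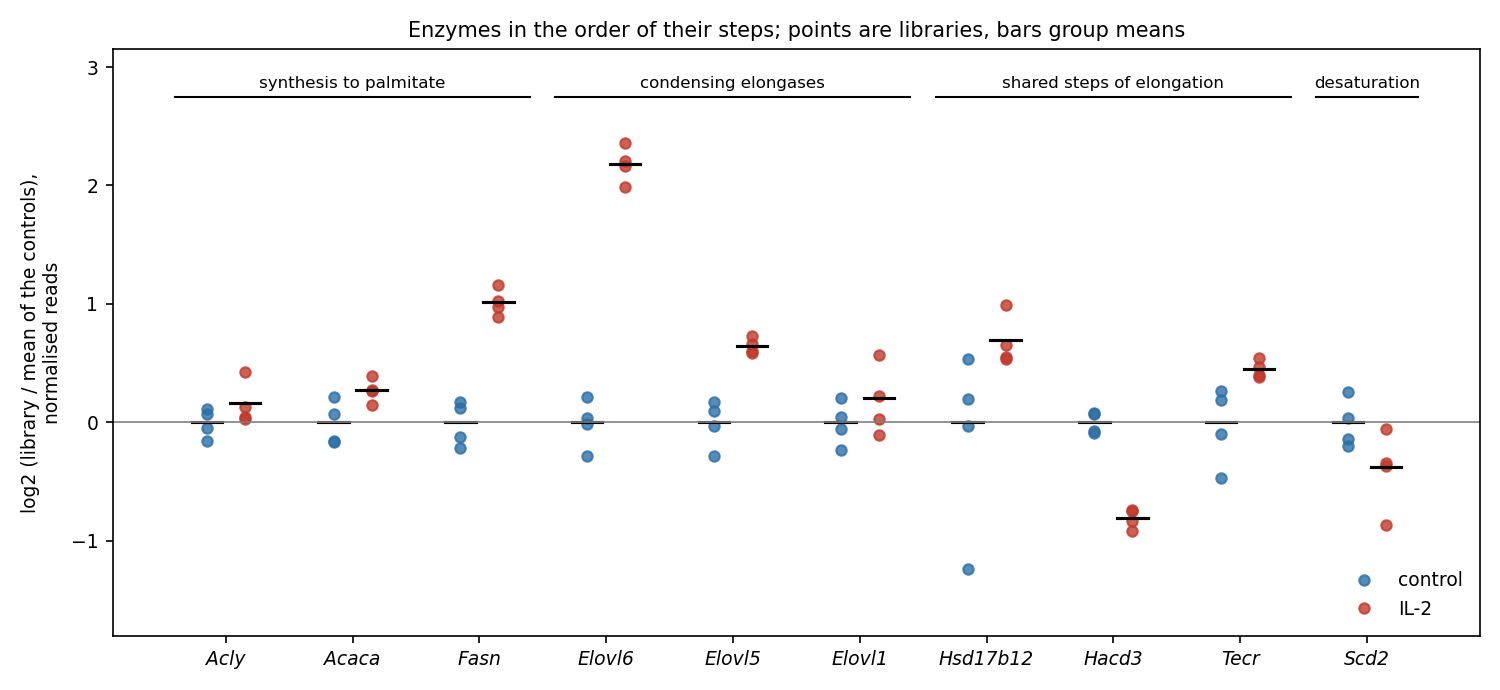
Log2 of each library's normalised reads over the mean of the controls (vertical axis) for enzymes in the order of their steps (horizontal axis). Points are libraries and bars group means; the IL-2 libraries lie at the top for Elovl6 and Fasn and below all controls for Hacd3, while Acly, Acaca, Elovl1 and Scd2 overlap.

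The other enzymes of synthesis, elongation and desaturation were mostly low. Of 23 listed, 3 passed the filter of the first fit (Tecr, Hsd17b12 and Hacd3), and 13 were tested in the wider fit on log2 normalised reads of genes with at least 10 reads, where 1 rose and 1, Hacd3, fell, beside 10.9% of all genes called higher and 9.07% called lower. The gene that rose there was Mid1ip1 (142 ± 40.1 against 75.5 ± 13.4, limma adjusted p = 0.0311), named after its values were seen, whose product promotes the assembly of acetyl-CoA carboxylase into its active filaments. Acss2, which makes acetyl-CoA from acetate and so offers a route beside Acly, had 93.4 ± 45.4 and 136 ± 33.1 reads (limma adjusted p = 0.274 in the wider fit). Fads1, the delta-5 desaturase gene next to Fads2, had 85.5 ± 26.1 and 53.1 ± 19.1 (limma adjusted p = 0.190). Acacb, the mitochondrial carboxylase gene, had 0 to 6.64 normalised reads with IL-2 and 0 to 26.1 in controls, and Fads3 had 0 in all 8 libraries.

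Among regulators of the path, 5 of 18 tested rose and 0 fell in the first fit, beside 16.8% and 14.6% of all genes. In the wider fit 4 of 22 rose and 0 fell, beside 10.9% and 9.07%. Rxra, the partner of the liver X receptors, went from 174 ± 15.1 reads in controls to 368 ± 77.4. It passed the filter of the first fit through the IL-2 libraries alone, and its limma adjusted p in the wider fit, where it entered with both groups, was 9.86e-04. Prkag2, a subunit of the AMP-activated kinase that restrains acetyl-CoA carboxylase, went from 232 ± 23.5 to 396 ± 59.4 (limma adjusted p = 0.00198). Lpin1, a phosphatidate phosphatase that also acts on SREBP, rose 1.56-fold, and Scap, the escort of SREBP to the Golgi, 1.46-fold (limma adjusted p = 0.00707 and 0.00824). The SREBP genes themselves did not pass: Srebf1 had 331 ± 83.6 reads in the IL-2 group against 302 ± 54.1 (limma adjusted p = 0.699), and Srebf2 had 1342 ± 192 and 1234 ± 92.0 (limma adjusted p = 0.444). Transcript levels do not show how much SREBP was processed. The median log2 difference of the 18 regulators was 0.04, beside -0.01 for all tested genes.

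Sterol synthesis and uptake, the other path that SREBP factors serve, had 6 of 8 tested genes rise and 0 fall in the first fit, beside 16.8% and 14.6% of all genes. In the wider fit 8 of 18 rose and 0 fell, beside 10.9% and 9.07%, with a median log2 difference of 0.54 against -0.01 for all genes. Idi1, an isomerase of isoprenoid units early in the path, rose 1.77-fold, and Cyp51, a demethylase of lanosterol, 1.46-fold (limma adjusted p = 0.00721 and 0.0121 in the wider fit). Idi1 passed the filter of the first fit through the IL-2 libraries alone.

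Of the genes for the uptake and activation of fatty acids, 2 of 5 tested rose and 0 fell in the first fit (16.8% and 14.6% of all genes). In the wider fit 3 of 12 rose and 0 fell (10.9% and 9.07% of all genes). Acot7, a thioesterase that frees fatty acids from coenzyme A, rose from 423 ± 66.2 to 615 ± 45.6, and Acsl5, which joins them to it, from 642 ± 75.9 to 846 ± 54.0 (limma adjusted p = 0.00463 and 0.0111). Fabp5, a fatty acid carrier and the additional gene of the wider fit, had 201 ± 7.45 and 104 ± 22.0 reads (limma adjusted p = 0.00492 there).

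Glycerolipid assembly and storage, which uses the chains made, had 1 rise (Agpat3) and 1 fall (Lpin2) among 4 tested, beside 16.8% and 14.6% of all genes. The wider fit gave 1 rise and 2 falls among 18, shares near those of all genes (10.9% and 9.07%). Lpin2, of the phosphatidate phosphatases, fell from 439 ± 65.3 to 215 ± 74.3 (limma adjusted p = 0.00199), the direction opposite to that of Lpin1. Agpat3 had 1396 ± 51.3 and 1109 ± 158 reads (limma adjusted p = 0.0186), with groups that overlapped through control 48, and no longer passed without IL-2 library 41 or without control 46 or 47 (limma adjusted p = 0.0502, 0.0574 and 0.0549).

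Beta-oxidation, which breaks chains down, gave 2 rises and 0 falls among 10 tested, and 3 and 0 among 21 in the wider fit. The shares that rose were near those of all genes, 16.8% and 10.9%. Etfb, an electron carrier of the pathway, went from 187 ± 24.0 to 336 ± 40.9, and the thiolase gene Acaa2 from 213 ± 55.1 to 385 ± 56.3 (limma adjusted p = 0.00161 and 0.00463). Ceramide synthesis, which takes palmitate and very long chains, gave 0 rises and 2 falls among 8 tested, and 0 and 2 among 11 in the wider fit, beside 14.6% and 9.07% of all genes that fell. Those of the first fit were Ugcg, the glucosylceramide synthase gene (516 ± 28.3 against 863 ± 148, limma adjusted p = 0.00119), and Sgms1, a sphingomyelin synthase gene (219 ± 30.4 against 297 ± 23.9, limma adjusted p = 0.0425), which did not pass in the wider fit (limma adjusted p = 0.0543). Cers6, a ceramide synthase gene too low for the first fit, was called lower in the wider fit (2.43-fold lower, limma adjusted p = 0.0144). It is named after its values were seen.

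**Figure D4:**
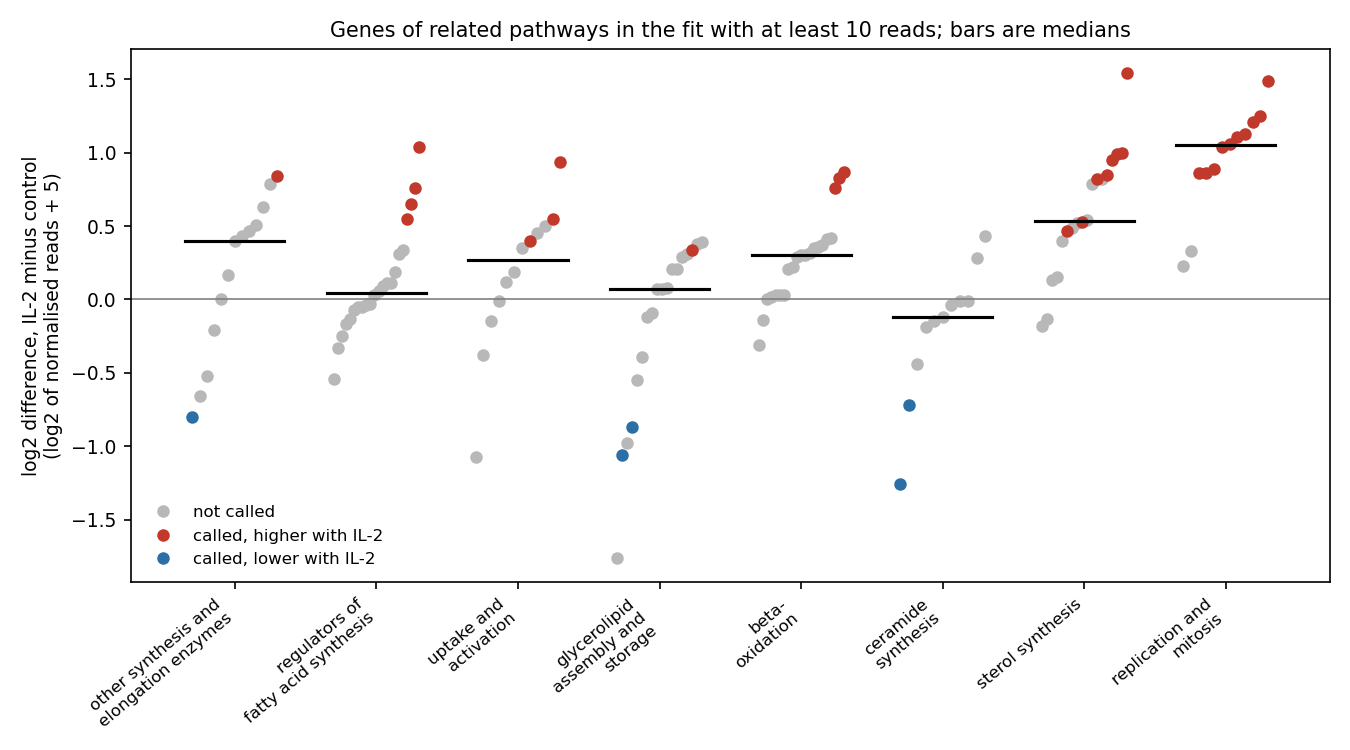
Log2 difference, IL-2 minus control, of log2 normalised reads plus 5 (vertical axis) for each gene of the related lists (horizontal axis) with at least 10 reads. Points are genes, coloured where limma's adjusted p is under 0.05, and bars are list medians; the medians are 0.54 for sterol synthesis and 0.04 for the regulators.

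Over these 7 lipid lists together, 18 of 56 tested genes rose and 4 fell, beside 16.8% and 14.6% of all genes. Of the 18 that rose, 6 were among the 8 of sterol synthesis. Of the 22 called, 9 passed the filter in all IL-2 libraries but in fewer than 4 controls, so that genes with such low control values were tested only where the IL-2 values were higher. The wider fit applies the same kind of rule at 10 normalised reads, which moves this limit to lower counts but does not remove it. It called 20 of 115 higher and 5 lower, beside 10.9% and 9.07%. Of the 20 called higher there, 8 were among the 18 of sterol synthesis.

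On the deposited scale, the 5 genes whose pattern over the 8 libraries was most like that of Elovl6 were Ecm1, Il2rb, Ahcyl2, Lrrc32 and Il2ra, among 2620 candidates. Likeness was the root-mean-square difference of deposited values centred on each gene's mean, from 0.127 for Ecm1 to 0.153 for Il2ra. That scale compresses the difference of a gene with fewer reads, such as Elovl6, more than that of Il2ra or Il2rb. On any scale, likeness takes in the group difference on which Elovl6 was selected, so genes with a difference of like size rank high. On log2 of normalised reads plus 5, a measure added after seeing the data, Ecm1 was still number 1 (0.258). Itih5, Ptpn9, Ppm1l and Vim came next (0.319 to 0.350). Lrrc32, Il2ra, Ahcyl2 and Il2rb were numbers 12, 13, 14 and 18 (0.438 to 0.472), so their likeness depends on the scale. Ecm1, an extracellular matrix gene, had 1168 to 1473 reads with IL-2 and 332 to 419 in controls. Il2ra and Il2rb encode chains of the IL-2 receptor.

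Other cells of the spleen could be present in a sort, and their markers were read beside these results. The 6 Treg genes listed, Foxp3 among them, were present in every library. Of these, Il2ra rose 2.61-fold and Cd4 fell (1.64-fold lower, limma adjusted p = 1.49e-04), while Foxp3, Cd3e, Ctla4 and Ikzf2 did not pass. Adipocyte markers, from cells rich in these enzymes, summed to 0 to 10.1 normalised reads in IL-2 libraries and 2.09 to 6.69 in controls, with Lep, Cfd and Cidec at 0 throughout. B cell markers (9 of 10 in the table) summed to 131 to 241 with IL-2 and 509 to 616 in controls. In the wider fit 2 of 3 tested B cell markers, Cd22 and Cd74, fell, beside 9.07% of all genes. Cd79b (60.1 ± 31.1 with IL-2 against 42.0 ± 14.1) did not pass. Myeloid markers (11 of 11) summed to 1026 to 1276 and 1863 to 2089, most of it Ctss. Of 4 tested in the wider fit, Ctss alone fell. Cst3 (200 ± 12.8 with IL-2 against 195 ± 23.0), Itgam (63.4 ± 35.9 against 64.4 ± 25.5) and Cd68 (17.2 ± 7.98 against 13.4 ± 7.15) did not pass. Markers of CD8 and NK cells (5 of 5) summed to 58.7 to 98.1 and 71.7 to 166, with Klre1 at 0 throughout, and Klrb1c among them had 0 to 7.95 reads with IL-2 and 18.3 to 80.4 in controls (limma adjusted p = 0.00804 in the wider fit). Erythroid markers reached at most 43.5 reads with IL-2 and 84.9 in controls, stromal markers 11.6 and 25.7, and platelet markers 19.0 and 53.1. The B cell and myeloid sums and Klrb1c were lower in the IL-2 group, but not every marker of these lists was. In that group Fasn, Elovl5 and Elovl6 were higher and Hacd3 and Scd2 lower. The part of other cells in these differences was not tested. Genes of replication and mitosis rose in 8 of 9 tested, with 0 falling, beside 16.8% and 14.6% of all genes. Mki67 had 7614 ± 3637 reads in the IL-2 group against 3284 ± 682 (limma adjusted p = 0.00367), and Mcm3, Mcm7, Pcna and Mcm5 rose 2.07-fold, 2.17-fold, 1.82-fold and 1.87-fold. Without library 44, the highest for Mki67, the difference of Mki67 on the deposited scale went from 0.98 to 0.71 (limma adjusted p = 4.11e-04), and those of Elovl6, Fasn and Elovl5 were 1.14, 0.67 and 0.42. Mki67, Mcm3, Mcm7, Pcna and Mcm5 all still rose there, and their part in the differences of the fatty acid genes was not tested.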

How the data were processed

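Total RNA of flow-sorted spleen Tregs was made into libraries with a stranded low-input kit, per the labels' protocols. The authors deposited variance-stabilised values on a log2 scale. The submitters' processing notes name Salmon, DESeq2 and GRCm39 but no settings; annotation, filters and use of strand were not stated. All libraries shared a lowest value, 8.69, for 0 reads. Normalised read counts were computed by inverting the parametric formula of this transformation, whose scale the lowest value fixes; the 5 commonest low values of each library, 40 in all, were whole multiples of 1 read within 0.001. Other genes need not be whole, so no count test was run. Estimated depth was 4953546 to 6399417 reads per library, and a gene 1 unit above the lowest value had 206 normalised reads.

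Genes at least 1 above the lowest value in at least 4 of the 8 libraries (5261) went into limma (IL-2 minus control, no covariates, trended eBayes), with Benjamini-Hochberg adjustment over all of them and a threshold of 0.05. Of these, 1650 passed. A wider fit, added after seeing the data, took the 10777 genes with 10 or more normalised reads in at least 4 libraries, as log2 of the reads plus 5. Alternatives were no filter, a filter of 2 units, quantile normalization, median centring, log2 normalised reads plus 5 and log2 RPM plus 1 for the same genes, limma without trend or with robust fitting, and each library left out in turn. The limma step was tested on simulated data. The members and gene lists were chosen with earlier results of these data known. Genes named were the 10 members, 9 fixed neighbours, up to 4 genes per list and direction with the smallest adjusted p, and the 5 most like Elovl6 among genes with a mean at or above the median; others are said to be chosen after their values were seen, and some genes that this rule names are not reported here. Marker lists covered Tregs, B cells, myeloid, erythroid, adipocyte, stromal, CD8 and NK cells and platelets. Fits ran in limma 3.58.1 under R 4.3.3, and tables and plots were made in Python 3.11.15 (matplotlib 3.10.9, pandas 2.3.3, numpy 2.4.6).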

Additional observations from a re-analysis of the deposited data

Results flagged for a closer look

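For each named gene with over 10 normalised reads in a library, each group of 4 libraries was checked for a library far from the others (Dixon's 95% criterion for 4 values). Of 82 groups, 8 had such a library, where chance gives about 1 in 20, and 0 of the 14 groups of the fatty acid synthesis and elongation genes did. Library 44 of the IL-2 group was the highest for Mki67 (13044 reads, next 6142) and the lowest for Il2rb (10949, next 13887). IL-2 library 42 was the lowest for Etfb (275, next 351) and Acaa2 (300.4, next 408). Control 45 was the highest for Fads1 (81.5, next 46.2) and the lowest for Rxra (151, next 178). Control 47 was the highest for Acacb (26.1, next 3.36), and control 48 for Agpat3 (1345, next 1053).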

How the results depend on the processing

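The number of genes called went from 1650 to 737 with the stricter filter, which tested 1519 genes, and the related lipid genes called from 22 to 2, of 4 tested. With single libraries left out it ran from 1378 to 1535 for all genes and from 16 to 20 for the related ones. On the deposited scale, over 14 alternatives, the log2 difference ran from 1.10 to 1.18 for Elovl6, 0.62 to 0.70 for Fasn and 0.35 to 0.44 for Elovl5; the log2 scales of reads gave larger values, as they are less compressed. Of 31 other genes that the naming rule took, 27 kept their side of the threshold under every alternative run. Tecr, Hsd17b12, Sgms1 and Agpat3 did not, and no named gene changed sign. No scaling moved the median of all genes by over 0.1. No paired analysis was possible because the groups share no replicate number. Depth limits Scd1, Elovl7 and Fads2, and genes with few reads generally.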
